A study of Mus musculus with 98 samples.

Results

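Sirtuins are enzymes that remove acetyl and related acyl groups from lysines and use up NAD in doing so, and the mouse has 7 genes for them, Sirt1 to Sirt7. All 7 were taken by name from the deposited gene counts, out of 24767 genes named in all 6 tables, and all 7 passed the filter on low counts in every fit. Their transcripts are described here over 98 libraries in 22 groups. The choice of members used no measured value.

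The family is spread over the cell. SIRT1, SIRT6 and SIRT7 are mainly nuclear (SIRT7 nucleolar), SIRT2 is mainly cytosolic and is known as a protein of the myelin sheath made by oligodendrocytes, and SIRT3, SIRT4 and SIRT5 lie in mitochondria. SIRT1 switches on ACSS2, the nuclear and cytosolic enzyme that makes acetyl-CoA from acetate, by deacetylating it, and SIRT3 does the same for its mitochondrial relative ACSS1. ACSS2 is the enzyme raised in this study, so Sirt1 and Sirt3 encode the regulators closest to it.

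Per the GENCODE models of build GRCm38, Sirt1 lies at chr10:63319005-63381704 on the minus strand, Sirt2 at chr7:28766735-28788661 on the plus strand, and Sirt3 at chr7:140863666-140882309 on the minus strand. Sirt4 lies at chr5:115478010-115484725 (minus), Sirt5 at chr13:43365496-43395203 (plus), Sirt6 at chr10:81621785-81627797 (minus) and Sirt7 at chr11:120618372-120625240 (minus). Sirt1 overlaps the antisense gene Gm16145, Sirt2 overlaps Nfkbib, and Sirt3 overlaps Ric8a and Psmd13, all on the opposite strand, while Sirt7 overlaps Mafg and Mir6936 on its own strand. Whether counting used the strand is not given in the sources used here, so counts of these 4 genes could include reads of their neighbours.

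The stretches before the RefSeq starts of Sirt1 and Sirt2 are shown, a choice made from the results below. As the cultures aged, Sirt2 was called higher in every group and Sirt1 was called lower in the tau groups only. They are from RefSeq (GRCm38.p6), 5′ to 3′ on the strand of the gene, with capitals for the GC box GGGCGG and the E-box CACGTG on either strand. The stretch of Sirt1 is chr10:63339051-63339285, which is 16 to 250 bases before its start, and that of Sirt2 is chr7:28766641-28766734, 18 to 111 bases before its start. The Sirt1 stretch lies inside the longer GENCODE span of Sirt1 given above.
Sirt1: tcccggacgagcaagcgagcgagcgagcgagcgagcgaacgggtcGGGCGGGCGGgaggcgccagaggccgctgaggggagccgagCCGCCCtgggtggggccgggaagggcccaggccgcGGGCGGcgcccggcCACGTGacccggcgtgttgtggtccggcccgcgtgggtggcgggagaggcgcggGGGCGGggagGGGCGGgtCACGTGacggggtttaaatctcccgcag
Sirt2: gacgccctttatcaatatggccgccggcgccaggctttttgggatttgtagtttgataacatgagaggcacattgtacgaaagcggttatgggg
The Sirt1 stretch held 6 GC boxes, a pair of which overlap, and 2 E-boxes, and the shorter Sirt2 stretch held neither. Over 250 bases before the start, the window of Sirt2 held 1 GC box and no E-box, and that of Sirt1 held 6 and 2. The CCAAT box went the other way, with 2 in the window of Sirt2, outside the printed stretch, and 0 in that of Sirt1. The CRE TGACGTCA and the NRF1 core GCGCATGC were also searched, with 0 matches in either window. Sirt3 and Sirt4 were also called higher with age of the culture. Sirt3 had 3 GC boxes and 1 CCAAT box before one start and 0 of either before another, and Sirt4 had 0 of either. Of 27025 RefSeq promoters searched over 250 bases before the start on both strands, 32.9% held a GC box, 6.05% an E-box and 34.5% a CCAAT box. In the same 250 bases, G and C made up 79.2% for Sirt1, and Sirt2 lay just under the median of 52.0% over all promoters. A match is a description of the letters and not a binding site.

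Neurons were primary embryonic hippocampal cultures from CD1 mice. They received a PhP.eB virus, upACSS2 (which carries Acss2) or vector, on day 5 in vitro for 48 h, and hAD-tau or PBS from day 7, in groups of 3. The 4 combinations were sampled at rest on day 9 and on day 21, and again on day 21 after a stimulation whose agent the labels do not name. A further culture, without virus, was taken on day 21 after hAD-tau (4 libraries) or PBS (3). All mice were male and received upACSS2 or vector. C57BL6 mice of 22 to 23 months (12 per virus, whole hippocampus) were sampled 30 min after remote recall of a fear context. Their labels give injection at 21 to 22 months of age and 2 months after injection. C57BL6 mice of 10 months (6 upACSS2 and 5 vector, dorsal hippocampus) were sampled 30 min after fear conditioning, and their labels give 2 weeks after injection. PS19 mice carry a mutant human tau transgene driven by the Prnp promoter. They were injected at 2.5 months of age and taken 1 month or 6 months later, 5 per group, 30 min after context recall at 24 hours. The tissue label of the PS19 upACSS2 group at 1 month is whole hippocampus and that of the other PS19 groups is dorsal hippocampus, and at 1 month the effect of the dissection cannot be told apart from that of the virus.

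Library totals ran from 5075099 to 39985460 counts (median 17643102). Groups were taken from titles, because the treatment entry contradicts the title for 6 groups, among them 12 neuron libraries. The others are PS19 mice at 1 month, with 5 of 5 upACSS2 libraries and 1 of 5 vector libraries contradicted. In all 6 neuron sets Acss2 went with the titles (43.8 CPM with vector and 1635 CPM with upACSS2 on day 9 in PBS, the smallest of those differences). These CPM were scaled over day 9 libraries alone, and differ slightly from values scaled over the whole table. In mice Acss2 passed no test, and 1 of 5 PS19 upACSS2 libraries at 1 month and 2 of 5 at 6 months lay within the range of vector. The lowest chi-square per gene among 242 pairs of libraries within groups was 2.32, so no pair differed by as little as sampling noise. The labels do not say that neuron libraries are separate cultures, so p-values measure the spread between these samples, which may be technical.

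Sirt2 and Sirt3 had the most abundant transcripts of the family per kilobase of exon. Levels are given as CPM, counts scaled to a common library size with TMM factors, and per kilobase (kb) only where genes are compared. Sirt2 ranked first and Sirt3 second in 22 of 22 groups, and Sirt5 ranked last in 22 of 22. Over the group means Sirt2 ran from 12.5 to 54.7 CPM per kb, Sirt3 from 4.73 to 14.7, Sirt7 from 2.81 to 6.75, Sirt6 from 2.32 to 5.64, Sirt4 from 1.84 to 5.42, Sirt1 from 2.33 to 3.82 and Sirt5 from 0.984 to 1.70. The ranges of the middle 4 genes overlap.

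**Figure D1:**
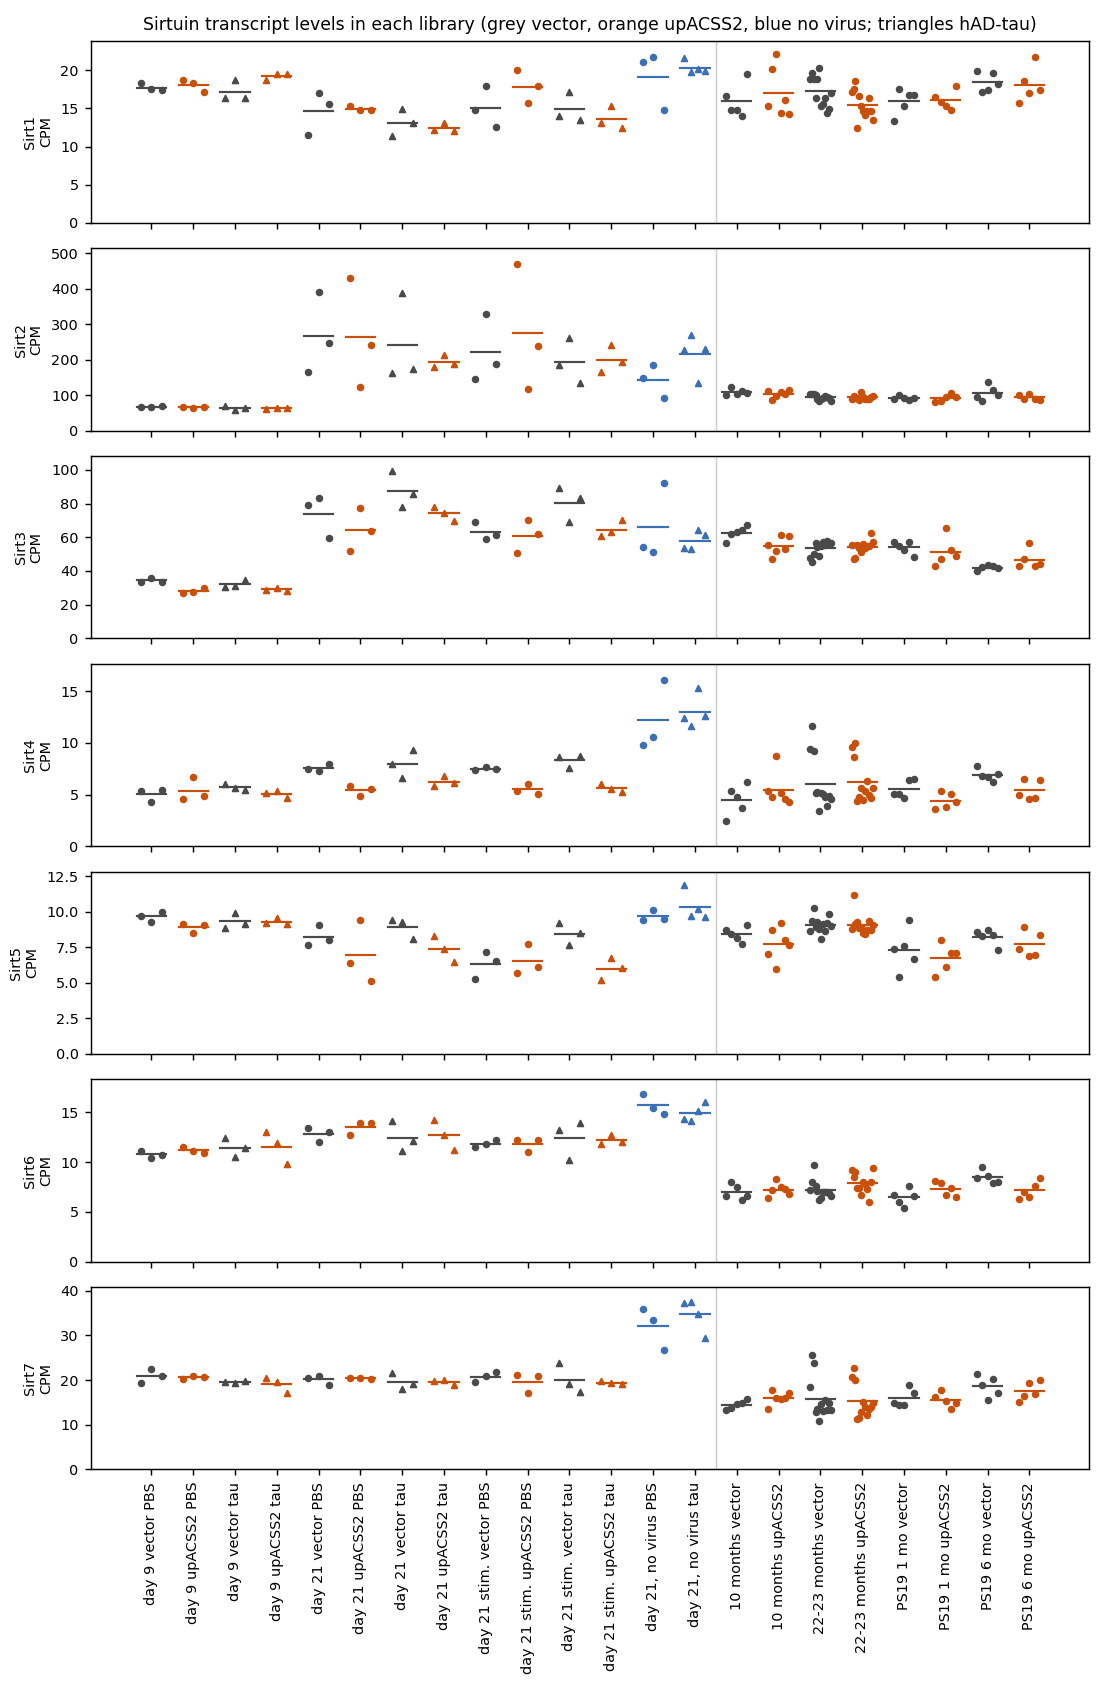
CPM of each sirtuin (1 panel each, linear axis from 0) in all 98 libraries by group, with grey for vector, orange for upACSS2, blue for no virus, triangles for hAD-tau and a bar at the group mean. Sirt2 and Sirt3 stand low on day 9 and high and spread out on day 21, and Sirt6 lies higher in every neuron library (9.76 to 16.9 CPM) than in mouse libraries (5.41 to 9.75).

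Sirt2 varied most across groups. Its highest mean was 275 ± 179 CPM (SD, n = 3, stimulated upACSS2 PBS) and its lowest 63.0 ± 0.722 CPM (n = 3, day 9 upACSS2 tau), a ratio of 4.37. Sirt3 followed with 87.7 ± 10.7 CPM in day 21 vector tau neurons and 28.3 ± 1.53 CPM in day 9 upACSS2 PBS neurons, a ratio of 3.10. For the other genes the ratio of highest to lowest group was 2.95 (Sirt4), 2.43 (Sirt6), 2.40 (Sirt7), 1.72 (Sirt5) and 1.64 (Sirt1). With the 22 groups put in order of their means, neighbours were separate in every library for at most 2 of 21 pairs (Sirt3 and Sirt6) and for none in Sirt5. Neighbours in such an order are the closest groups by construction, so this does not show whether groups differ. Levels from different tables were counted in 2 ways (tables of 25239 or 55367 genes) and were not tested against each other.

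Of 161 tests (23 comparisons of 7 genes), 15 passed an adjusted p of 0.05 in edgeR's quasi-likelihood test, and 12 of these 15 were changes between day 9 and day 21 in culture. Sirt3 was called in 6 comparisons, Sirt2 in 4, Sirt1 and Sirt4 in 2 each and Sirt6 in 1. Sirt5 and Sirt7 were called in none.

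**Figure D2:**
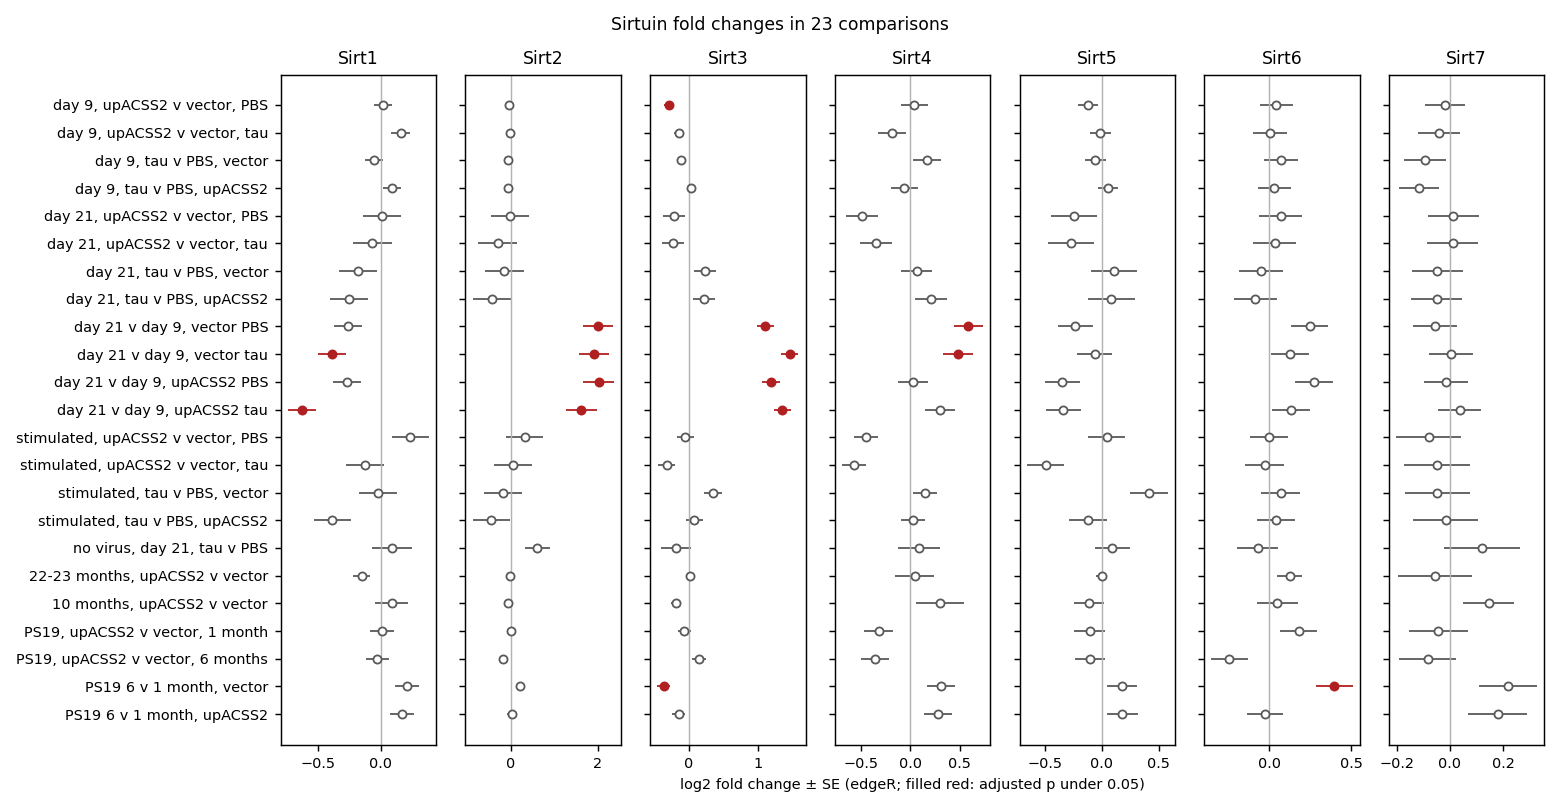
log2 fold change (linear axis, different in each panel) with its SE for each sirtuin in the 23 comparisons, and filled red points for an adjusted p under 0.05. The calls sit in the 4 rows of day 21 against day 9, with 3 elsewhere: Sirt3 in day 9 PBS neurons and Sirt3 and Sirt6 in PS19 mice.

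As the cultures went from day 9 to day 21, Sirt2 and Sirt3 rose in all 4 virus and treatment groups, Sirt4 rose in both vector groups and Sirt1 fell in both tau groups. The called sirtuins numbered 3 of 7 in vector PBS, 4 in vector tau, 2 in upACSS2 PBS and 3 in upACSS2 tau. The background is high, with 57.7%, 52.6%, 54.3% and 53.6% of all genes tested called in these comparisons, so calls for 2 to 4 of 7 sirtuins are near that background and no result about the family. Age of the culture and time since the virus cannot be told apart. Library scaling matters for small changes: without the TMM factor each of these log2 fold changes would be 0.12 to 0.16 higher, which changes the sign of none of the 12 calls.

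Sirt2 was level on day 9 and uneven on day 21. On day 9 its 12 libraries lay between 59.5 and 68.6 CPM. On day 21 it was 166, 391 and 247 CPM in vector PBS, 163, 388 and 176 CPM in vector tau, and 180, 214 and 188 CPM in upACSS2 tau. In upACSS2 PBS it was 432, 124 and 241 CPM. Every day 21 library was above every day 9 library, and libraries of a group were far apart on day 21 in all but upACSS2 tau. The log2 fold changes were 2.00 ± 0.35 (SE, adjusted p 6.4e-05, edgeR) in vector PBS, 1.92 ± 0.35 in vector tau, 2.01 ± 0.35 in upACSS2 PBS and 1.62 ± 0.35 in upACSS2 tau.

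Markers of oligodendrocytes and their precursors moved with Sirt2. The summed CPM of 12 oligodendrocyte and myelin markers was 37.9 to 47.6 on day 9, and in day 21 upACSS2 PBS neurons it was 1377, 213 and 858 in the libraries with 432, 124 and 241 CPM of Sirt2. In day 21 vector PBS the same sum ran from 393 to 911. At most 3 of the 12 genes were at 0 in a day 9 library and at most 2 in a day 21 library of these groups. The summed precursor list (6 genes, among them Gpr17 and Pdgfra) ran from 17.02 to 37.4 CPM on day 9 and from 565 to 1342 CPM on day 21 at rest. Mog, which encodes a protein of mature myelin, was an exception and fell by 1.74 in vector PBS (adjusted p 4.91e-05, edgeR) while Mag (9.62), another myelin gene, rose. In bulk RNA, fewer cells of a type and less RNA per cell cannot be told apart, and the part of oligodendrocytes in the Sirt2 change was not tested.

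Within groups the same relation held. With the group mean of log2 CPM removed, Sirt2 and the mean of the myelin list had r = 0.778 over 43 neuron libraries (Spearman's rho 0.616, and r = 0.733 without the 2 libraries farthest from the median). Over 55 mouse libraries r was 0.739 (rho 0.724, and 0.7 without those 2). For the precursor list in neurons r was 0.699 and rho 0.892. These are descriptions over libraries that share groups, with no test. Ribosomal RNA moved with Sirt2 as well: the 3 resting day 21 libraries with 388 to 432 CPM of Sirt2 had 4.10%, 7.93% and 11% of their counts on Rn45s (the 45S ribosomal precursor), where the other unstimulated libraries of the virus-treated cultures had 0.198% to 1.89%. Among stimulated libraries that share was 0.236% to 1.13%, and 0.538% in the library with the highest Sirt2 of all, 469 CPM. In hippocampus, where the summed myelin markers were 3412 to 9082 CPM, Sirt2 was only 82.0 to 138 CPM, so tissue had more marker RNA and less Sirt2 than the day 21 cultures with the highest Sirt2.

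**Figure D3:**
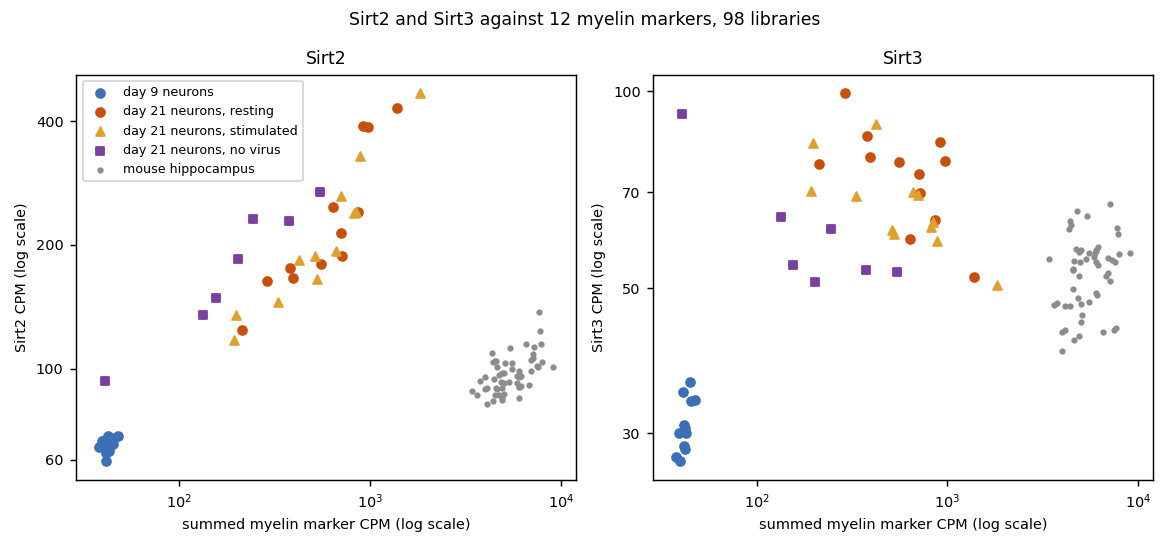
Sirt2 (left) and Sirt3 (right) CPM against the summed CPM of 12 oligodendrocyte and myelin markers, both axes on a log scale, 1 point per library, coloured by culture day and setting or mouse tissue. Sirt2 climbs with the markers within day 21 neurons (up to 469 CPM), Sirt3 declines with them, and mouse libraries form a separate cloud with high markers and 82.0 to 138 CPM of Sirt2.

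Sirt3, the main mitochondrial deacetylase, rose most regularly. On day 9 it was 33.6, 35.95 and 33.7 CPM in vector PBS and 30.6, 30.9 and 34.7 CPM in vector tau. On day 21 it was 79.3, 83.5 and 59.5 CPM in vector PBS and 99.3, 78.2 and 85.5 CPM in vector tau. With upACSS2, day 21 values were 52.0, 77.5 and 63.5 CPM in PBS and 77.9, 74.6 and 69.9 CPM in tau. No day 21 library overlapped day 9 in any of the 4 groups, as was so upwards for 30.3%, 31.3%, 33.8% and 34.5% of all genes in vector PBS, vector tau, upACSS2 PBS and upACSS2 tau. The log2 fold changes were 1.11 ± 0.13 (adjusted p 4e-07, edgeR) in vector PBS, 1.45 ± 0.13 in vector tau, 1.19 ± 0.13 in upACSS2 PBS and 1.35 ± 0.13 in upACSS2 tau. From day 9 to day 21 Sirt3 and the summed myelin and astrocyte markers all rose. Within groups of neuron libraries, unlike Sirt2, Sirt3 was lower where glial markers were higher. With the group mean removed, over the 43 neuron libraries Sirt3 had r = -0.843 with the myelin list (rho -0.800) and r = -0.838 with the astrocyte list. With the neuron list r was 0.747 (rho 0.636). Mouse libraries did not show this: over 55 of them Sirt3 had r = 0.174 with the myelin list, 0.2 with the astrocyte list and 0.144 with the neuron list.

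Sirt4, another mitochondrial family member, rose with vector. Its day 9 values were 5.37, 4.28 and 5.39 CPM in vector PBS and 6.04, 5.62 and 5.44 CPM in vector tau, and on day 21 they were 7.51, 7.27 and 7.92 CPM and 7.999, 6.57 and 9.33 CPM. All day 21 values were above all day 9 values in each treatment. The log2 fold changes were 0.59 ± 0.15 (adjusted p 0.00215, edgeR) and 0.48 ± 0.15 (adjusted p 0.0107, edgeR), and the second was lost without day 21 vector tau replicate 3 (adjusted p 0.0793). With upACSS2 the log2 fold changes were 0.03 ± 0.15 in PBS and 0.30 ± 0.15 in tau, neither called. The difference between upACSS2 and vector in PBS was itself tested and did not pass: -0.56 ± 0.21, adjusted p 0.292 (edgeR interaction). In that interaction 0.0404% of all genes were called, and 0.00673% in the interaction of day with tau in vector neurons.

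Sirt1, the deacetylase of ACSS2, fell in tau-treated cultures. In vector tau it was 16.4, 18.8 and 16.4 CPM on day 9 and 11.4, 14.9 and 13.1 CPM on day 21. In upACSS2 tau it was 18.7, 19.5 and 19.6 CPM on day 9 and 12.2, 13.1 and 12.1 CPM on day 21. The days did not overlap in either, where 28.6% and 33.8% of all genes were lower without overlap. The log2 fold changes were -0.39 ± 0.12 (adjusted p 0.00769, edgeR; 0.053 without day 21 vector tau replicate 1) and -0.63 ± 0.11 (adjusted p 0.000106). In PBS the values were -0.27 ± 0.11 in both virus groups, with an adjusted p of 0.0506 in each, and DESeq2 put both past the threshold (0.0362 in vector and 0.0318 in upACSS2), so PBS and tau cultures are not shown to differ. The interaction of day with tau in vector neurons was -0.13 ± 0.16 for Sirt1 (adjusted p 0.825, edgeR). In upACSS2 neurons, where PBS and tau were farther apart (-0.27 and -0.63), that interaction was not tested. Over the neuron libraries Sirt1 had r = -0.781 with the neuron list within groups (rho -0.701).

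The remaining members moved little. Sirt6, a chromatin deacetylase of telomere and DNA repair biology, had log2 fold changes of 0.13 to 0.27 from day 9 to day 21, with the lowest adjusted p at 0.0507 (upACSS2 PBS). Sirt5, the mitochondrial desuccinylase, had -0.35 to -0.06, with the lowest adjusted p at 0.0609. Without day 21 upACSS2 PBS replicate 2 the Sirt5 value in that group was -0.63 (adjusted p 0.000554, edgeR). This library held 9.43 CPM beside 6.39 and 5.15 CPM in the other two. Sirt7 had -0.06 to 0.04. In upACSS2 PBS the count of called sirtuins was 2 by edgeR and 4 by DESeq2, which added Sirt1 and Sirt5.

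Genes around the sirtuins also changed between day 9 and day 21. Of all genes, 30.6% rose and 27.1% fell in vector PBS, 27.7% and 24.9% in vector tau, 28.5% and 25.8% in upACSS2 PBS and 27.2% and 26.4% in upACSS2 tau, and the counts below stand beside these shares. Of 11 genes of NAD synthesis, which supplies the family's cosubstrate, 6 rose and 3 fell in vector PBS, and 3 to 4 rose and 2 to 3 fell in the other 3 groups. In vector PBS the risers included Qprt (2.29) and Naprt (1.85), which start from quinolinic and nicotinic acid. Nampt (-0.40), the rate-limiting enzyme of the salvage route, and Nmnat2 (-0.77), which keeps axons alive, fell. Of 8 tested genes of other NAD use or nicotinamide metabolism, 4 rose and 2 fell, with Cd38 (3.07) and Parp3 (2.71) among the risers. Those that fell were Sarm1 (-1.24), an axonal NAD hydrolase, and Nnmt (-2.30), whose enzyme methylates nicotinamide and does not itself use up NAD.

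Among the partners and regulators of SIRT1 the called genes were all lower. Of 7 genes, 6 fell in vector PBS and 5 in each of the other 3 groups, and none rose. They were led by Usp22 (-1.60 in vector PBS), a deubiquitinase that stabilises SIRT1, Hic1 (-1.66), a repressor of the Sirt1 gene, and Prkaa2 (-0.78), a catalytic subunit of AMPK. The list's median log2 fold change was -0.31 in vector PBS beside 0.05 over all genes tested.

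Genes whose proteins are sirtuin substrates moved both ways. Of 14 nuclear and cytosolic substrates, 7 rose and 3 fell in vector PBS. Mapt (-2.56), which encodes tau, and Tuba1a (-1.32) fell, and Foxo4 (1.81) and Srebf1 (1.21), which encode transcription factors, rose. Of 14 mitochondrial substrates, 7 rose and 2 fell in vector PBS, and 7 or 8 rose and 1 fell in the other groups. Acss1 (1.94) and Idh2 (1.73) were among those that rose. Acss1, the SIRT3 substrate that parallels ACSS2, went from 13.4 to 51.6 CPM in vector PBS (adjusted p 9.32e-06, edgeR), whereas the cells' own Acss2 had 45.9 and 49.5 CPM (log2 fold change 0.11 ± 0.18, adjusted p 0.637). Markers of glia moved in the same comparisons, and their part in these lists was not tested.

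The upACSS2 virus against vector was compared in 6 neuron sets, and 1 of 42 sirtuin tests passed. Sirt3 was lower with upACSS2 in day 9 PBS neurons, at 27.2, 27.6 and 30.0 CPM against 33.6, 35.95 and 33.7 CPM, with no overlap. The log2 fold change was -0.29 ± 0.06 (adjusted p 0.00745, edgeR). In that comparison 10.2% of all genes were called. With the 12 day 21 libraries added to the same fit the value was -0.28 with an adjusted p of 0.817, and 2 genes in all were called there. At an unadjusted p under 0.05 there were 8 of the 42 tests, while 10.7% to 26.2% of all genes per set were under it. DESeq2 called 3 of the 42 (it gave no adjusted p for 1).

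The direction for Sirt3 recurred. On day 9 in tau it was 28.7, 30.0 and 28.4 CPM with upACSS2 and 30.6, 30.9 and 34.7 CPM with vector, again with no overlap, but the log2 fold change of -0.14 ± 0.07 did not pass (adjusted p 0.352), and nor did the interaction of virus and tau on day 9 (0.14 ± 0.09, adjusted p 0.431). Of all genes, 0.692% were called in tau and 0.663% in that interaction. The values were -0.21 and -0.23 on day 21 in PBS and tau, and -0.05 ± 0.13 and -0.32 ± 0.13 in stimulated PBS and tau neurons. Sirt3 was thus below vector in 6 of 6 sets, with no count of how many of all genes were. Its groups did not overlap in 3 of them (day 9 PBS, day 9 tau and day 21 tau), where 15.5%, 8.14% and 11.3% of all genes were lower without overlap. The remaining 3 sets overlapped. Resting and stimulated day 21 sets carry the same replicate numbers and are not known to be separate cultures.

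Sirt4 lay below vector in all 4 day 21 sets. At rest it was 5.86, 4.89 and 5.55 CPM with upACSS2 and 7.51, 7.27 and 7.92 CPM with vector in PBS, and 5.81, 6.80 and 6.07 CPM against 7.999, 6.57 and 9.33 CPM in tau. After stimulation it was 5.35, 6.04 and 5.09 CPM against 7.35, 7.66 and 7.50 CPM in PBS, and 6.04, 5.54 and 5.26 CPM against 8.68, 7.56 and 8.76 CPM in tau. Only the resting tau groups overlap, through a vector library at 6.57 CPM. The log2 fold changes were -0.49 ± 0.16 (adjusted p 0.208, edgeR), -0.34 ± 0.16 (0.473), -0.45 ± 0.12 (0.13) and -0.57 ± 0.12 (0.0546), and none passed.

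Some of these Sirt4 values passed in other fits. In stimulated tau neurons, same-numbered libraries deviated together across viruses (r of 0.111 to 0.359). There the edgeR fit with a replicate block gave an adjusted p of 0.0458 and DESeq2 gave 0.00475. The block covered all stimulated libraries, and in PBS across viruses (lowest r -0.111) and in upACSS2 across treatments (-0.115) same-numbered libraries did not all deviate together. In stimulated PBS neurons DESeq2 gave 0.0431, and in resting PBS neurons the fit with day 9 libraries gave 0.0434. Few genes were called at all in these comparisons: 0.0137% at rest in PBS, 0.0273% at rest in tau, 0.208% after stimulation in PBS and 0.937% in tau. Groups lower without overlap made up 9.77%, 11.4% and 12.3% of all genes in resting PBS, stimulated PBS and stimulated tau neurons, so Sirt4's lack of overlap alone is ordinary. On day 9 the values were 0.04 ± 0.14 in PBS, with overlap, and -0.18 ± 0.14 in tau, without. Resting and stimulated sets of the same virus and tau carry the same replicate numbers and are not known to be separate cultures.

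Sirt5 in stimulated tau neurons was 5.21, 6.76 and 6.03 CPM with upACSS2 and 9.21, 7.64 and 8.53 CPM with vector, without overlap, but did not pass (-0.49 ± 0.17, adjusted p 0.128, edgeR). In stimulated PBS neurons it was 0.04 ± 0.17, and the interaction of virus and tau did not pass either (-0.54 ± 0.23, adjusted p 0.326). Sirt1, the activator of the enzyme that the virus supplies, had log2 fold changes of -0.13 to 0.24 over the 6 sets, Sirt2 -0.31 to 0.32, Sirt6 -0.03 to 0.07 and Sirt7 -0.08 to 0.01, with none called. No gene at all was called in the interactions of virus and tau on day 21 (0%) or after stimulation (0%).

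**Figure D4:**
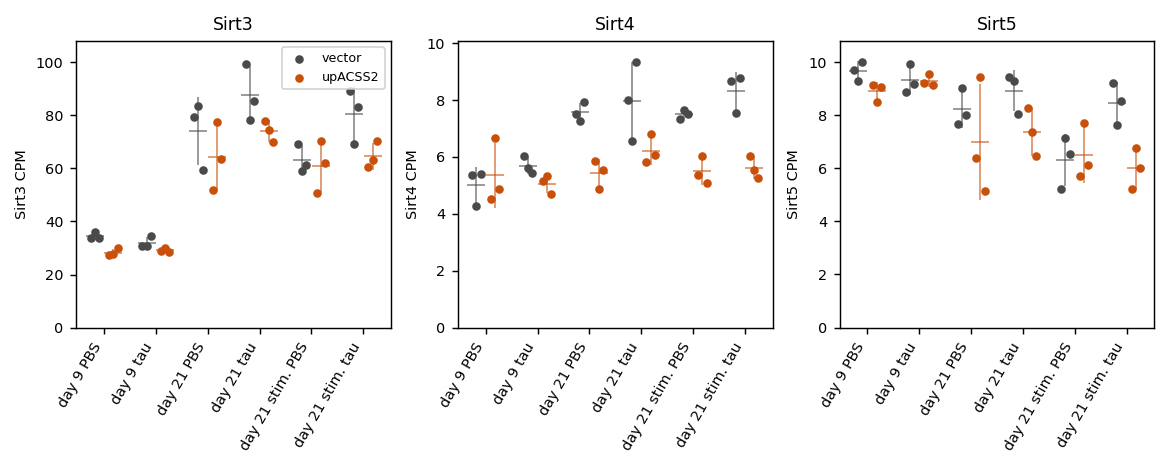
CPM (linear axis from 0) of the 3 mitochondrial sirtuins in 6 sets of neurons, vector in grey and upACSS2 in orange, with 1 point per library and bars for the mean and SD (n = 3 each). Sirt4 with upACSS2 stays between 4.89 and 6.80 CPM in the 4 day 21 sets, where vector reaches 6.57 to 9.33 CPM, and Sirt3 differs most regularly on day 9.

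Other genes of the pathway were also called in the day 9 PBS set, where 4.9% of all genes rose and 5.35% fell. Of 13 mitochondrial substrates tested, 4 fell, among them Acadl (-0.37), a fatty acid dehydrogenase, Ndufa9 (-0.16) and Sdha (-0.15), both of the respiratory chain, and none rose. Acss1 lay at -0.36 ± 0.12 (adjusted p 0.059, edgeR). Of 14 nuclear and cytosolic substrates, 5 rose, which were Acss2 itself (5.21), Tuba1a (0.24), Crtc1 (0.23), Ep300 (0.18) and Mapt (0.12). Usp22 was up by 0.26 and was the 1 called partner of SIRT1 of 7, and none of 9 NAD synthesis genes was called. Of other cell types, 3 of 4 precursor markers, led by Pdgfra (-2.39), and 2 of 6 myelin markers were lower in the same set, and 4 of 11 neuron markers were higher and 1 lower. Their part in the Sirt3 difference was not tested.

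The comparison of hAD-tau with PBS gave no called sirtuin in 7 sets (0 of 49 tests by edgeR and 0 by DESeq2, which gave no adjusted p for 1 test; 3 tests at an unadjusted p under 0.05). Over all genes, 4.28% and 0.349% were called on day 9 with vector and upACSS2, 0% and 0% on day 21, 3.02% and 0.208% after stimulation, and 0% in the culture without virus. At an unadjusted p under 0.05 the share of all genes ran from 6.36% to 24.3% per set. The lowest adjusted p-values were those after stimulation in vector neurons. There Sirt5 was 9.21, 7.64 and 8.53 CPM with tau against 5.24, 7.14 and 6.53 CPM with PBS (0.41 ± 0.17, adjusted p 0.152, edgeR), and Sirt3 was 89.2, 69.3 and 83.2 CPM against 69.1, 59.0 and 61.2 CPM (0.35 ± 0.13, adjusted p 0.116). Neither gene overlapped between tau and PBS, which 13.6% of all genes also did upwards. These comparisons share the vector tau libraries with the virus comparison in tau above, where both genes had negative values with upACSS2.

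In the culture without virus Sirt2 was 229, 269, 135 and 231 CPM with tau and 149, 185 and 93.5 CPM with PBS (0.60 ± 0.29, adjusted p 0.39, edgeR), with overlap. The highest and the lowest library of each group were the same for Sirt2 and for the myelin markers, which summed to 374, 546, 134 and 244 CPM with tau and 156, 203 and 40.6 CPM with PBS. PBS replicate 3 stood apart here: it had the lowest myelin sum, 57.1 CPM of precursor markers against 815 and 917 CPM in the other PBS libraries, the highest neuron sum (7251 CPM) and the highest Sirt3 of the table (92.2 CPM, others 51.2 to 64.2 CPM). Sirt4 (9.78 to 16.1 CPM), Sirt6 (14.2 to 16.9 CPM) and Sirt7 (26.7 to 37.5 CPM) had their highest group means in this culture, as did Sirt1 (14.8 to 21.7 CPM) and Sirt5 (9.45 to 11.9 CPM). It was counted over more genes than the tables of virus-treated neurons, so the difference in level was not tested.

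Sirtuin means after stimulation were 0.766 to 1.19 times those at rest for the 7 genes in the 4 combinations, while Fos, an immediate early gene, was 32.8 to 52.5 times and Npas4 72.3 to 97.6 times its resting mean. The groups at rest and after stimulation did not overlap for Sirt1 in upACSS2 PBS (1.19), Sirt5 in vector PBS (0.766) and Sirt6 in upACSS2 PBS (0.875). These are 3 of 28 gene and group combinations, while 21.7% of all genes did not overlap in vector PBS, 17% in vector tau, 25% in upACSS2 PBS and 21% in upACSS2 tau. The 2 states are in separate tables, so these ratios have no test. Libraries with the same number were alike in Sirt2: over 12 same-numbered pairs, resting and stimulated log2 levels had r = 0.911, with differences from -0.56 to 0.17 against a range of 1.80 among resting libraries. For the other genes r was 0.805 (Sirt4), 0.78 (Sirt3), 0.601 (Sirt1), 0.548 (Sirt5), 0.405 (Sirt7) and 0.221 (Sirt6). Group means were not removed here, so differences between the 4 combinations also enter r. Sirt4, for example, had lower means with upACSS2 than with vector in both states.

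In mouse hippocampus upACSS2 changed no sirtuin past the test. None of 28 tests passed in edgeR or in DESeq2, 5 had an unadjusted p under 0.05, and 0% of all genes were called in each of the 4 comparisons. Per comparison, 2.92% to 14.1% of all genes had an unadjusted p under 0.05. In mice of 22 to 23 months Sirt1 ran from 12.5 to 18.6 CPM (median 15) with upACSS2 and from 14.4 to 20.3 CPM (median 16.7) with vector, with wide overlap (-0.15 ± 0.07, adjusted p 0.875, edgeR). In mice of 10 months Sirt3 ran from 47.0 to 61.5 CPM (median 54.2) and from 56.6 to 67.3 CPM (median 63.3), also overlapping (-0.18 ± 0.08, adjusted p 0.548). Its sign was negative in 2 of 4 mouse comparisons. The values were 0.015 ± 0.047 at 22 to 23 months, and -0.065 ± 0.095 and 0.149 ± 0.095 in PS19 mice at 1 and 6 months.

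In PS19 mice the fitted Sirt4 values were negative. At 1 month it was 3.62, 5.33, 3.76, 5.08 and 4.28 CPM with upACSS2 against 5.07, 5.06, 4.71, 6.40 and 6.52 CPM with vector. At 6 months it was 4.93, 6.52, 4.61, 4.64 and 6.38 CPM against 7.81, 6.78, 6.75, 6.25 and 6.96 CPM. Both sets overlap, and the log2 fold changes of -0.32 ± 0.15 (adjusted p 0.964, edgeR) and -0.35 ± 0.14 (adjusted p 0.279) did not pass. In the mice of 22 to 23 and 10 months the sign was opposite (0.04 ± 0.19 and 0.30 ± 0.24). Sirt4 is a low count gene here, with as few as 19 counts in a mouse library.

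Between 1 and 6 months after injection, PS19 mice with vector had less Sirt3 and more Sirt6. Sirt3 was 56.9, 54.9, 52.2, 57.4 and 48.4 CPM at 1 month and 40.1, 42.3, 43.4, 42.8 and 41.7 CPM at 6 months, with no overlap. The log2 fold change was -0.36 ± 0.10 (adjusted p 0.0281, edgeR). Sirt6 was 6.74, 5.97, 5.41, 7.57 and 6.61 CPM at 1 month and 8.38, 9.52, 8.63, 7.92 and 8.05 CPM at 6 months, again apart (0.40 ± 0.11, adjusted p 0.0366, edgeR). Of all genes, 7.46% were called, and 4.66% were lower and 5.16% higher without overlap. The mice are also older by the same interval, so age and time since injection cannot be told apart.

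Neither call is firm, and the treatment entry of 1 of the 5 vector libraries at 1 month contradicts its title. Sirt6 lost it when any 1 of 9 of the 10 libraries was left out, and Sirt3 lost it without vector replicate 1 or 2 of 1 month or vector replicate 1 or 4 of 6 months. Without the filter on low counts the adjusted p was 0.0573 for Sirt3 and 0.108 for Sirt6. In upACSS2 mice over the same interval Sirt3 was -0.14 ± 0.10 (adjusted p 0.523) and Sirt6 -0.02 ± 0.11 (adjusted p 0.991), with 0.0442% of all genes called, and the difference between the viruses did not pass for Sirt6 (-0.42 ± 0.16, adjusted p 0.366) or Sirt3 (0.21 ± 0.13, adjusted p 0.51), and 0% of all genes were called in that interaction. Since the upACSS2 group at 1 month is labelled whole hippocampus, neither of these can be told apart from dissection. Over all 6 interactions tested, 0 of 42 sirtuin tests passed in edgeR or DESeq2 (which gave no adjusted p for 5), and 3 had an unadjusted p under 0.05. Per interaction, 8.3% to 17.2% of all genes had an unadjusted p under 0.05.

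Cell type markers shifted over the same months in vector PS19 mice. The summed neuron markers ran from 11470 to 14680 CPM at 1 month and from 8169 to 12610 CPM at 6 months, microglial markers from 492 to 1907 CPM (median 693) and from 797 to 1941 CPM (median 1390), and astrocyte markers from 4603 to 7290 CPM and from 5739 to 11060 CPM. All of these ranges overlap, and their part in the Sirt3 and Sirt6 values was not tested. Of all genes, 4.59% rose and 2.87% fell. Of 13 mitochondrial substrates tested, Ndufa9 (-0.25) and Pdha1 (-0.24) fell and none rose. Of 14 nuclear and cytosolic substrates, Srebf1 (0.81), Trp53 (0.52) and Crtc2 (0.51) rose and none fell, and Nadsyn1 (0.61), the NAD synthetase, was the 1 called gene of 10 of NAD synthesis.

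Libraries of the 22 to 23 month mice fell apart by number in 2 sirtuins. In the 6 libraries numbered 1 to 3 (3 per virus), Sirt4 ran from 8.65 to 11.7 CPM (median 9.49), against 3.39 to 6.27 CPM (median 4.87) in the 18 numbered 4 to 12. Sirt7, the nucleolar sirtuin, ran from 18.3 to 25.5 CPM (median 21.7) against 10.8 to 15.6 CPM (median 13.4). Neither gene overlapped between the sets, and the other 5 sirtuins did. Of all genes tested, 4.9% were higher in libraries 1 to 3 without overlap. Endothelial markers were apart in the same way, with sums of 145 to 223 CPM in libraries 1 to 3 and 46.3 to 105 CPM in the others. Sirt4 had r = 0.668 with the endothelial list over 55 mouse libraries and 0.144 without libraries 1 to 3, and Sirt7 0.658 and 0.0694, and the part of these cells was not tested. Neuron markers overlapped (11310 to 12680 and 11180 to 13460 CPM), as did myelin markers (3412 to 5544 and 4444 to 9082 CPM) and choroid plexus markers (23.0 to 290 and 57.2 to 2534 CPM), and totals were 12585078 to 13993297 and 11436140 to 28161314 counts. The labels name no batch, and the split was known from the data, so it has no test. With the set as a covariate, or with libraries 4 to 12 alone, none of the 7 virus results of these mice passed the test.

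**Figure D5:**
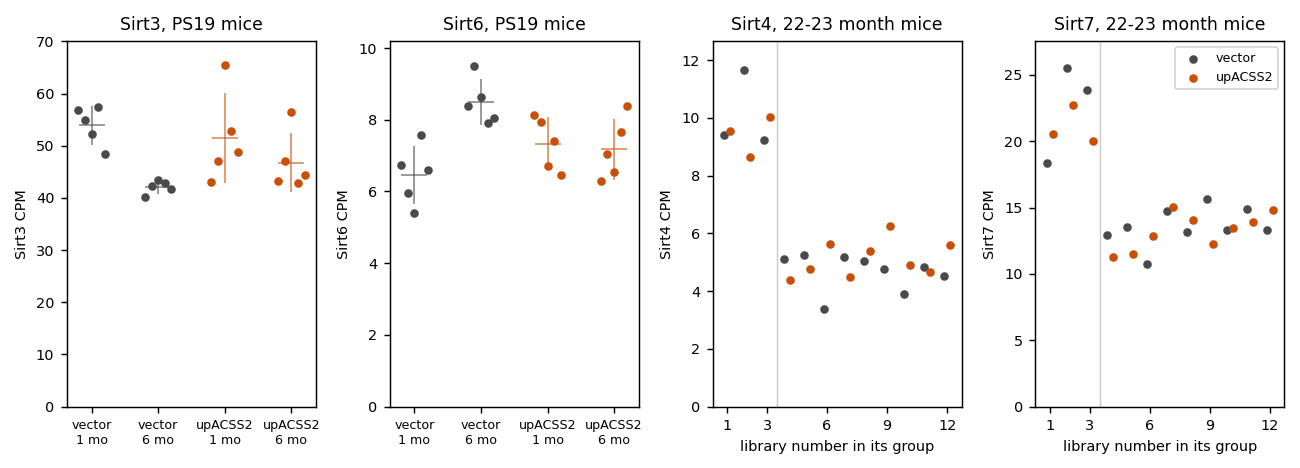
Left pair: Sirt3 and Sirt6 CPM in PS19 mice, 1 point per mouse with the mean and SD (n = 5 each). Right pair: Sirt4 and Sirt7 CPM in 22 to 23 month mice by library number, vector in grey and upACSS2 in orange, with a line between numbers 3 and 4. Vector PS19 mice are apart between 1 and 6 months, and libraries 1 to 3 of both viruses lie above all later ones (Sirt4 at least 8.65 CPM against at most 6.27 CPM).

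Genes most like each sirtuin were found by Pearson's r of log2 CPM over the 98 libraries with group means removed, among 9075 genes, as a description. Sirt2 had the closest, with Epb41l2 (r = 0.929, rho 0.746, and 0.913 without the 2 farthest libraries), Cnp (0.923), a myelin enzyme, and Gltp (0.867). Sirt1 was followed by Smchd1 (0.783), Hnrnph1 (0.712) and Cnot6 (0.704), and Sirt3 by Bcl2l2 (0.788), Habp4 (0.782) and Scg5 (0.775). Without aged libraries 1 to 3 these 9 values were 0.681 to 0.938.

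For Sirt4, Sirt6 and Sirt7 the likeness was weaker without that set. Sirt4 had Leng8 (0.765), Ubp1 (0.761) and Lrrc45 (0.758), which were 0.402, 0.487 and 0.513 over the 92 libraries without it. Sirt7 had Snrnp70 (0.822), Firre (0.799) and Naa40 (0.794), then 0.507, 0.409 and 0.413. Sirt6 had at most 0.575 (Snapc4, then 0.418) and Sirt5 at most 0.531 (Cirbp, then 0.529). Among the sirtuins themselves the highest pair over all libraries was Sirt4 with Sirt7 (0.611, and 0.118 without the set). It was 0.732 in mouse and -0.287 in neuron libraries. The most opposed was Sirt1 with Sirt3 (-0.553, and -0.51 without the set), with -0.622 in neurons and -0.519 in mice. Sirt2 and Sirt3, which both rose in culture, had -0.439 within groups (-0.441 without the set). They were opposed in neuron libraries only (-0.661), and in mice the value was 0.222 (0.408 without the set).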

How the data were processed

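RNA was measured in 98 mouse libraries. The authors deposited whole-number counts per gene symbol, 1 column per library, in 6 tables, and the submitters' processing notes name STAR, HTSeq, featureCounts, DESeq2 and the build mm10, with no roles or strand setting. In the culture without virus, 1 unnamed row took 6.13% to 8.74% of a library's counts and stayed out of every step.

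The members, lists and comparisons were chosen with earlier results of these data known. Counts were tested in R 4.3.3 with edgeR 4.0.16 (quasi-likelihood F test, TMM, default filter by group, Benjamini-Hochberg over all genes tested, 0.05, two-sided). Virus and tau comparisons of resting neurons had 1 fit per day, and the other comparisons 1 fit per table. CPM used TMM factors of the whole table, apart from the first Acss2 values given for day 9, with a prior count of 2 for log2 values. The edgeR step was tested on simulated data. Named genes were the sirtuins, Acss1, Acss2, at most 3 called members of a list in each direction, and the 3 genes most like each sirtuin (mean log2 CPM of at least 3 in every table, no predicted genes). Ep300 and Mapt in the day 9 PBS set were named beyond this rule after their values were seen, as were Mog, Fos and Npas4.

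The results were recomputed with DESeq2 1.42.0, with RLE scaling, without the filter, with other libraries in the fit, with replicate numbers as a block, after omitting single libraries (groups of up to 6), with total counts and with another prior count. Added after the data were seen were correlations without aged libraries 1 to 3 or the 2 farthest libraries, and fold changes without TMM. Same-numbered replicates deviated together, with every correlation over 0.1, in the culture without virus (0.22 to 0.394), in stimulated tau neurons across viruses (0.111 to 0.359) and in stimulated vector neurons across treatments (0.123 to 0.326). In the other 20 comparisons this was not so, and resting and stimulated libraries were not compared in this way. Protein sequences were not used here.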

Additional observations from a re-analysis of the deposited data

Results flagged for a closer look

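Sirt4 in upACSS2 replicate 3 of the 10-month mice stood apart from its group, with 8.72 CPM (44 counts) against 4.30 to 5.37 CPM in the other 5 libraries. Its gap was 0.69 of the group's range, above the 95% limit of 0.625 for 6 samples. It was the 1 such library among 49 combinations of gene and group, where chance gives about 2.45.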

How the results depend on the processing

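No sirtuin changed sign with a call under any alternative run, and the calls for Sirt2 and Sirt3 between day 9 and day 21 held under all of them. Counts of called sirtuins moved as follows, and the cause was not tested beyond the number of libraries or genes in the fit. With all 24 unstimulated libraries in 1 fit, day 9 upACSS2 against vector in PBS went from 1 to 0, and the same comparison on day 21 from 0 to 1 (Sirt4). From day 9 to day 21, vector PBS went from 3 to 5 with a replicate block, and upACSS2 PBS from 2 to 5 with a replicate block and to 4 with RLE size factors, with DESeq2 or with only the groups compared (Sirt1, Sirt5 or Sirt6 added). Stimulated upACSS2 against vector went from 0 to 1 (Sirt4) with DESeq2 in PBS and, in tau, with DESeq2, with a replicate block and without stimulated vector tau replicate 2. PS19 vector mice at 6 against 1 month went from 2 to 0 without the low-count filter, to 1 with a replicate block or only the groups compared, and to 0 to 1 when a library was left out. The replicate block changed no other call in the comparisons whose same-numbered libraries deviated together. Group levels moved by over 1 SD in 24 of 154 cases with total counts in place of TMM, and in 0 with RLE size factors or a prior count of 0.5. Depth limits Sirt4, Sirt5 and Sirt6 most, with as few as 19, 30 and 32 counts in a library.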
